A study of Mus musculus with 8 samples.

Results

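A set of 9 genes long described as targets of the let-7 microRNAs, outside the Hmga, Arid3, Igf2bp, cyclin D and Myc families, was followed in embryonic mouse neural tissue with both Lin28 genes mutated. It holds Tgfbr1, Nras and Dusp9 in cell signalling, Nr6a1, Hic2, E2f5 and Plagl2 in transcription, and Ccnj and Cdc34 in the cell cycle and protein turnover. The genes were picked by name, 9 of the 24420 gene rows of total RNA. Earlier results of these data were known when they were picked, so counts of them called are description and no independent test. All 9 had a row there and passed the filter on low counts, and 8 of them were also among the 5804 rows of polysomal RNA. Cdc34 in polysomal RNA was not analysed here.

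The libraries came from tissue of E11.5 embryos, labelled brain, with neural tube named in the growth protocol. The embryos carried Lin28a-/-;b-/- (the double knockout, dKO) or were wildtype (WT, called control in that protocol). Each genotype was sequenced as total RNA and as polysomal RNA, the RNA that sediments with several ribosomes, in 2 libraries per group and 8 in all. The labels do not say whether the knockout was in every cell, nor whether replicates came from separate embryos, so p-values measure the spread between these libraries, which may be technical.

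Lin28a and Lin28b are RNA-binding proteins that bind the precursors of let-7 and keep them from being made into mature microRNA. Mature let-7 pairs through its seed, bases 2 to 8, with matching letters in the 3′ untranslated regions (3′ UTRs) of messenger RNAs, which are then translated less and broken down. Lin28 proteins are high in early neural progenitors and fall as the brain matures, while let-7 rises. Lin28 proteins also bind many messenger RNAs directly. Levels of mature let-7 were not analysed here.

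The mature sequences of 4 family members from RefSeq (GRCm38.p6) show what they share. The seed is in capitals, and it is the same in let-7a to let-7g, let-7i and miR-98.
let-7a-5p: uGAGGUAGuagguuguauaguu
let-7d-5p: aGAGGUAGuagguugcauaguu
let-7i-5p: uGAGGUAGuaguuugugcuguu
miR-98-5p: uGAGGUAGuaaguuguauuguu

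The letters that pair with this seed were searched on the sense strand of the longest annotated 3′ UTR of each gene (GENCODE M21, GRCm38). A site was the 8-mer CTACCTCA, or one of the 7-mers CTACCTC and TACCTCA where the 8-mer was not complete. Each of the 9 genes held at least 1 site, against 14.9% of 21019 annotated 3′ UTRs. An 8-mer was present in 5 of them, against 3.06% of all. These genes are known let-7 targets, so the sites describe them and are no finding. Their 3′ UTRs were also long, with a median of 3727 bases against 961.

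A single site per gene is shown, as a stretch through which let-7 could pair with the transcript, and some of the genes hold further sites. Pairing was not measured. The matching letters are in capitals, with the neighbouring bases in lower case.
Tgfbr1: gtgtttaggaggctggttgttCTACCTCA
Nras: cctgagacctcttcagaataaCTACCTCc
Dusp9: gaaggggggagggaaagcgcaaTACCTCA
Nr6a1: ccataatgttgacaaagacaaCTACCTCA
Hic2: tttctaccagggacccctcccCTACCTCA
E2f5: atggaaacttgggactattatCTACCTCt
Plagl2: ctctgattcagaaacacacttCTACCTCt
Ccnj: gtccagtgttgagtattgtaaCTACCTCA
Cdc34: gtgtgggcctcaggcgacagaCTACCTCA

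On GRCm38 these stretches lie in 3′ UTR exons at chr4:47410822-47410850 (Tgfbr1), chr3:103064353-103064381 (Nras), chrX:73642501-73642529 (Dusp9), chr16:17262864-17262892 (Hic2), chr3:14605723-14605751 (E2f5), chr19:40847917-40847945 (Ccnj) and chr10:79688106-79688134 (Cdc34), all on the plus strand. Those of Nr6a1 (chr2:38727449-38727477) and Plagl2 (chr2:153229898-153229926) are on the minus strand. Nr6a1 held the most sites, 8 of them with 3 complete 8-mers, and Hic2 held 5. Nras, Tgfbr1 and Cdc34 held 2 each, and Dusp9, E2f5, Plagl2 and Ccnj held 1 each. Where in the 3′ UTR the sites lay also differed: the Tgfbr1 8-mer begins at base 66 of 4154, the E2f5 site at base 27 of 592 and the Ccnj 8-mer at base 1840 of 2474.

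Column totals of total RNA were between 15060560 and 15768767 counts. The polysomal rows summed to 3740980 and 5164982 counts in dKO, against 14874143 and 15414712 in WT, which are sums over the listed rows and not library depths. Lin28a was lower in dKO total RNA, with 6.55 and 7.73 CPM (counts scaled to a common library size by TMM) against 73.3 and 72.2 CPM in WT, and Lin28b had 48.0 and 55.1 CPM against 128 and 123 CPM. Markers of neural progenitors summed to 4030 to 4080 CPM in dKO and 4400 to 4450 CPM in WT, and markers of neurons to 4450 to 4460 and 4560 to 4570 CPM. Erythroid markers were also present, at 2700 CPM in both dKO libraries and 4420 to 4480 CPM in WT. Of the 10 erythroid markers Hba-a1 was at 0, and 8 of the 9 tested fell in dKO, where 16.0% of all genes were called lower. The other marker lists (10 genes each) summed in dKO and in WT to 423 to 430 and 487 to 515 CPM for mesenchyme, to 226 to 230 and 219 to 220 CPM for endothelium and to 55.5 to 67.8 and 51.3 to 56.2 CPM for macrophages. Xist, active in female cells, was at 106 and 111 CPM in dKO and at 162 and 169 CPM in WT, while the Y-linked Ddx3y was at 33.3 and 38.7 CPM in dKO and 23.9 and 25.9 CPM in WT. The erythroid and sex-linked values differed between genotypes, and their part in the values of the 9 genes was not tested.

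In total RNA the question was whether the abundance of these transcripts differed between dKO and WT. Of the 9 genes 8 were lower in dKO and 1, Nras, did not pass the test. The falls ran from Dusp9, left at 36.2% of its WT level, to Plagl2, left at 80.6%. Among all 14594 genes tested, 16.0% were called lower and 30.7% either way (edgeR quasi-likelihood test, Benjamini-Hochberg adjusted p under 0.05). The median log2 fold change was -0.47 over the 9 genes and 0 over all genes. For the same 8 genes both dKO libraries lay below both WT libraries, which 31.2% of all genes did. Bulk RNA cannot tell fewer cells with a transcript from less of it per cell.

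Among the signalling genes, Tgfbr1 encodes the type I receptor through which TGF-beta ligands phosphorylate Smad proteins. It was measured at 533 and 523 CPM in dKO and at 706 and 705 CPM in WT. The groups did not overlap, and the replicates of each genotype lay close together. Its log2 fold change was -0.42 ± 0.03 (SE; adjusted p = 3.08e-48, edgeR).

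Dusp9 encodes a phosphatase that switches off the kinase ERK at the end of the Ras pathway. Its libraries held 3.88 and 2.96 CPM against 8.73 and 10.3 CPM in WT. These are few reads, 61 and 46 counts in dKO and 137 and 155 in WT, yet no dKO library came near a WT library. The log2 fold change was -1.47 ± 0.24 (adjusted p = 2.93e-08, edgeR), and 0.404% of the genes tested lay lower.

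Nras encodes one of the Ras GTPases that pass growth factor signals to the ERK cascade. Its libraries held 839 and 826 CPM in dKO and 815 and 825 CPM in WT. The libraries of the genotypes lay side by side, with a log2 fold change of 0.02 ± 0.02 (adjusted p = 0.532, edgeR).

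**Figure D1:**
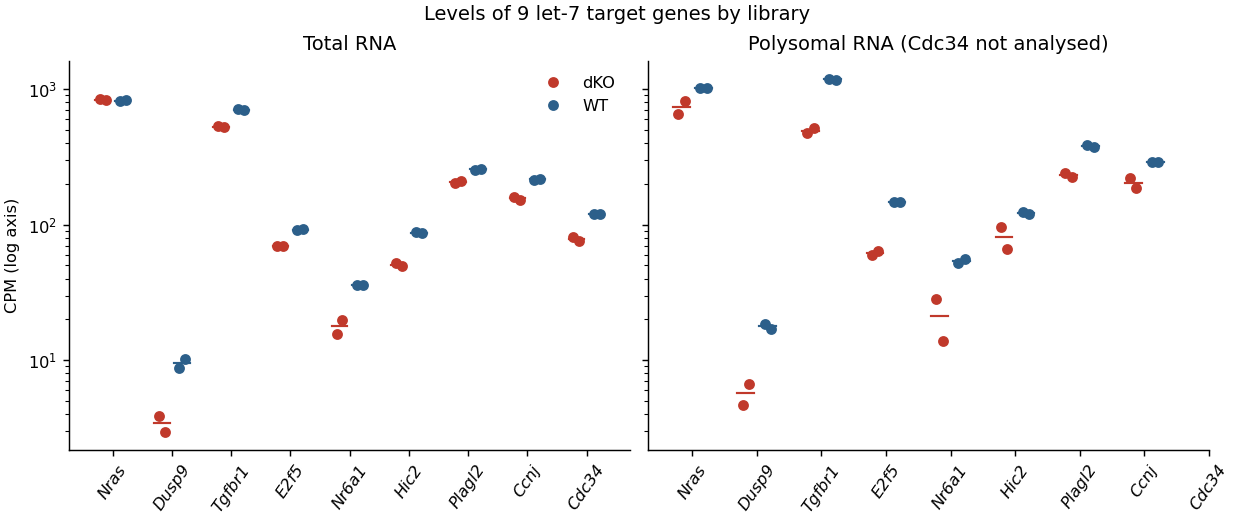
Points are CPM (log axis) in each library for the 9 genes, dKO in red left of WT in blue, with the mean as a line, in total RNA (left panel) and polysomal RNA (right panel). In total RNA both dKO points lie below both WT points for every gene but Nras, while in polysomal RNA this holds for all 8 genes shown.

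Of the transcription factor genes, Nr6a1 encodes an orphan nuclear receptor that represses Oct4 as embryonic cells differentiate. It was at 15.7 and 19.8 CPM in dKO and at 35.6 CPM in both WT libraries, so that dKO held 49.8% of the WT level (log2 fold change -1.0 ± 0.12, adjusted p = 2.37e-15, edgeR). Hic2 encodes a zinc finger repressor. It was at 52.4 and 49.2 CPM in dKO and at 88.1 and 86.6 CPM in WT (log2 fold change -0.78 ± 0.08, adjusted p = 2.41e-23, edgeR). Both genes fell clear of the replicate spread. The exons of Hic2 overlap those of Gm26635 on the other strand by 3091 bases, and how strand was used in counting is not given in the sources used here, so reads of the pair may be mixed.

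E2f5 encodes a member of the E2F family that, with pocket proteins, holds cell cycle genes off in resting cells. It was at 70.1 and 70.0 CPM in dKO and at 90.6 and 92.6 CPM in WT, a log2 fold change of -0.39 ± 0.07 (adjusted p = 3.73e-07, edgeR). Plagl2, a zinc finger activator linked to growth and stem cells, was at 201 and 211 CPM in dKO and at 252 and 259 CPM in WT. Its log2 fold change of -0.31 ± 0.04 (adjusted p = 9.17e-12, edgeR) was the smallest of the falls. For both genes the replicates of a genotype were closer to each other than to any library of the other genotype.

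Ccnj encodes cyclin J, a poorly studied cyclin, and Cdc34 encodes the ubiquitin-conjugating enzyme of the SCF ligases, which mark cell cycle regulators for destruction. Ccnj was at 160 and 153 CPM in dKO and at 214 and 217 CPM in WT (log2 fold change -0.47 ± 0.05, adjusted p = 3.84e-21, edgeR). Cdc34 was at 81.1 and 75.2 CPM in dKO and at 119 CPM in both WT libraries (log2 fold change -0.61 ± 0.06, adjusted p = 2.32e-19, edgeR). Neither gene had overlapping groups. Cdc34 has a near-identical copy, Cdc34b, not analysed here, whose 3′ UTR also holds an 8-mer, so the Cdc34 counts may hold reads from it.

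The order of levels was set per kilobase of merged exon length, since longer transcripts give more reads. In WT total RNA, Nras (154 CPM per kilobase) and Tgfbr1 (108) led, followed by Cdc34 (75.7), E2f5 (51.4), Ccnj (49.5), Plagl2 (44.6) and Hic2 (13.7). Dusp9 (3.49 ± 0.398, SD, n = 2) and Nr6a1 (3.29 ± 0.000197) came last and did not differ beyond the spread of Dusp9. In dKO the order began in the same way, with Nras at 156 and Tgfbr1 at 80.8 CPM per kilobase. Plagl2 and Ccnj were then level at 35.9, and Dusp9 (1.26 ± 0.238) lay below Nr6a1 (1.64 ± 0.265) by more than either SD. The order depends on the length used. Per kilobase of the longest transcript, a choice made after seeing the data, Nr6a1 lay above Dusp9, at 2.80 against 1.26 CPM in dKO and 5.62 against 3.49 CPM in WT. On that scale Ccnj also passed E2f5, at 40.9 against 39.4 CPM in dKO and 56.4 against 51.5 CPM in WT.

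Across all other genes with a 3′ UTR, the presence of an 8-mer went with slightly lower dKO levels. Leaving out the 9 genes and both Lin28 genes, 23.1% of 497 tested genes with an 8-mer were called lower in dKO total RNA and 11.3% higher. Genes with only 7-mers gave 16.7% lower and 17% higher of 1810, and genes with neither gave 16.6% lower and 14.7% higher of 10959. The median log2 fold change was -0.06 with an 8-mer and 0 in both other classes. Of the 9 genes, Dusp9 had the largest fall and holds only a 7-mer.

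**Figure D2:**
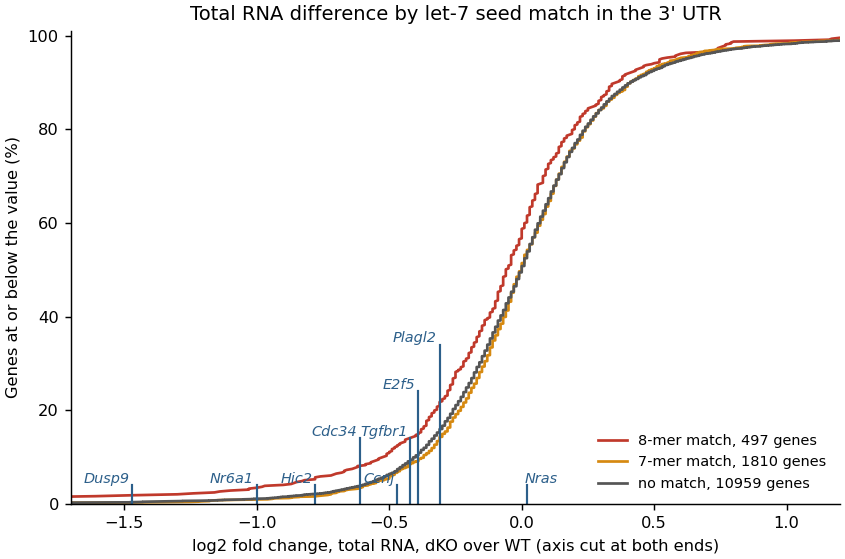
Curves give the share of tested genes (vertical axis, percent) at or below each log2 fold change of dKO over WT in total RNA (horizontal axis), for genes with an 8-mer, with 7-mers only and with neither in the 3′ UTR. Blue lines mark the 9 genes, which are in none of the curves: Dusp9 stands at -1.47 and Nras at 0.02, and the 8-mer curve runs slightly to the left of the other curves.

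Other genes described as let-7 targets, in lists also chosen with earlier results of these data known, gave a frame for these values. In dKO total RNA 16.0% of all genes tested were called lower and 14.7% higher. Of 11 genes of the Hmga, Arid3, Igf2bp, cyclin D and Myc families, 8 fell in dKO total RNA and none rose, with a median log2 fold change of -0.47 against 0 over all genes. Hmga2, a chromatin protein of embryonic cells, changed by -1.61 ± 0.05, Arid3b by -1.48 ± 0.11 and Igf2bp1, which stabilises growth transcripts, by -1.03 ± 0.04. Of 17 further reported targets 9 fell and 2 rose, with a median of -0.26. The fall was largest for Igdcc3 (-2.08 ± 0.05), followed by Fignl2 (-1.89 ± 0.09) and the ubiquitin ligase gene Trim71 (-1.03 ± 0.13). Dicer1, the enzyme that cuts microRNA precursors, changed by -0.66 ± 0.05. Hras was among those that rose.

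Relatives of the 9 genes by protein family were set beside them in total RNA. Of 12 relatives tested, 2 fell, 4 rose and 6 did not pass the test, among 16.0% of all genes called lower and 14.7% higher. Hras, a close relative of Nras, was at 99.8 and 100 CPM in dKO and at 82.0 and 78.5 CPM in WT (log2 fold change 0.32 ± 0.07, adjusted p = 1.94e-05, edgeR). The annotated mouse 3′ UTR of Hras held none of the searched letters, while that of Nras held 2 sites.

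Dusp6 and Dusp7, the ERK phosphatases closest to Dusp9, fell by less, with log2 fold changes of -0.25 ± 0.08 and -0.23 ± 0.09 (adjusted p = 0.0075 and 0.0274, edgeR). Plagl1, a zinc finger gene of the Plag family, rose by 0.28 ± 0.03 on the log2 scale, and Ube2r2, the relative of Cdc34, by 0.09 ± 0.03. No call was made for Plag1 (0.02 ± 0.09), E2f4 (-0.15 ± 0.07), the activin receptor gene Acvr1b (0.05 ± 0.07), Ccnjl (-0.13 ± 0.06) or Hic1 (0.48 ± 0.24). Acvr1c had only 17 and 21 counts in dKO and 5 and 7 in WT and did not pass (adjusted p = 0.0645, edgeR). A difference between a gene and its relative was not tested.

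Other genes of the pathways around the 9 were counted from lists, beside 14.7% of all genes called higher and 16.0% called lower in dKO total RNA. Of 39 other genes of Ras and ERK signalling, 13 rose and 4 fell in dKO total RNA, with a median log2 fold change of 0.08. The feedback inhibitor genes Spry4 and Spry2 rose by 0.50 ± 0.15 and 0.45 ± 0.07, and the kinase gene Map2k1 changed by -0.37 ± 0.10. Of 36 tested genes of TGF-beta, activin and BMP signalling, 7 rose and 6 fell (median 0.06). Ltbp3, which stores latent TGF-beta in the matrix, rose by 0.84 ± 0.19, and Skil, a Smad repressor, changed by -0.34 ± 0.04.

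Of 17 E2F and Rb family genes 2 rose and 2 fell (median -0.01). The repressor gene E2f6 (-0.55 ± 0.06) fell by more than E2f5, and E2f1 rose by 0.26 ± 0.05. Of 15 genes of SCF ligases and their partners 2 rose and 6 fell (median -0.06), among them Ccnf (-0.47 ± 0.07) and Skp2 (-0.35 ± 0.05), both substrate receptors. Of 17 other cyclins, a list that also holds Ccnf, 2 rose and 2 fell (median -0.03), with Ccng2 at 0.43 ± 0.05. Of 18 other nuclear receptor genes 5 rose and 1 fell (median 0.13), with the thyroid hormone receptor gene Thra at 0.65 ± 0.05.

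**Figure D3:**
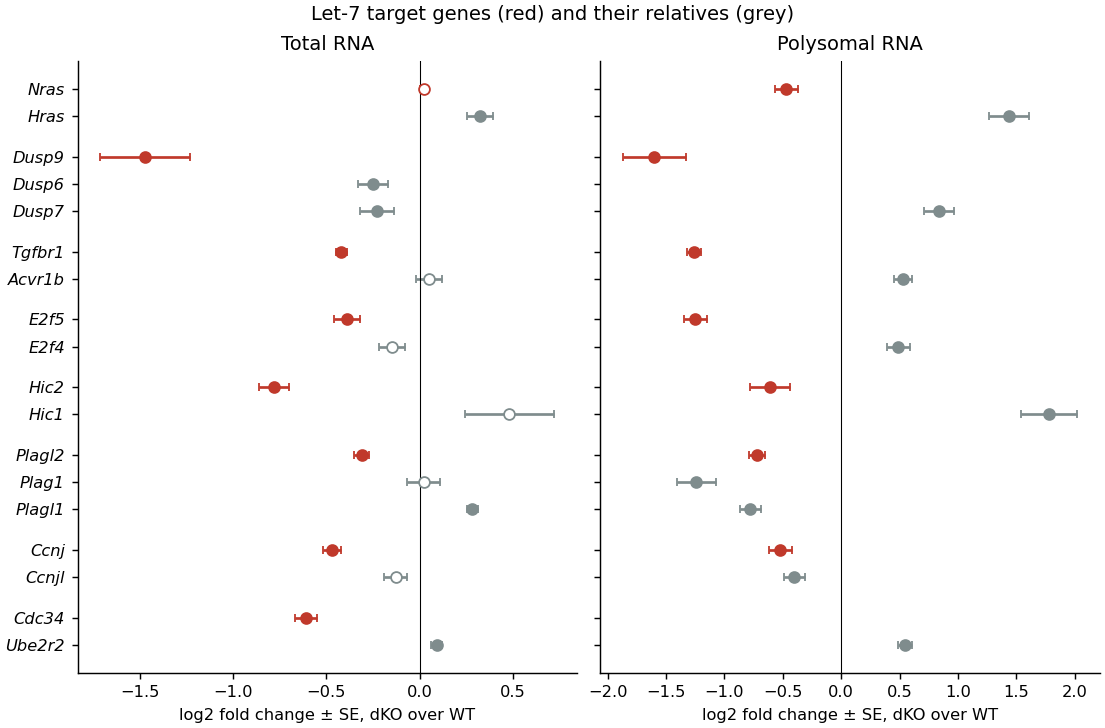
Log2 fold changes of dKO over WT with SE (horizontal axes) for the let-7 target genes in red and their relatives in grey, in total RNA (left panel) and polysomal RNA (right panel). Filled points passed an adjusted p of 0.05, and Nr6a1 and some relatives are not drawn. In total RNA Hras (0.32) lies to the right of zero and Nras (0.02) on it, while in polysomal RNA Hras (1.44) is right of zero and Nras (-0.47) left of it.

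The polysomal rows asked how the RNA on ribosomes differed between genotypes, and they are a picked set. Among 5441 rows with a mean of at least 100 counts, the log2 ratio of summed dKO to WT counts lay below -2.04 in 2927 and above -1.71 in 2514, with none between. All 8 genes lay below that empty interval, from -2.36 for Nras to -3.51 for Dusp9. After scaling, all 8 were called lower in dKO, among 52.5% of 5777 rows tested that were called lower and 99.7% called either way. Both dKO libraries lay below both WT libraries for all 8, as for 52.8% of all rows. The dKO polysomal replicates stood apart from each other, with a chi-square per degree of freedom over all genes of 24.8, against 2.88 to 3.19 in the other groups. The rows lack a middle range of the difference tested, so p-values in this fraction are given as description. With almost every row called, these counts say little about the 8 genes, and the sizes are what can be described. Their median log2 fold change was -0.98, against -0.35 over all rows. Erythroid markers among the polysomal rows (5 of 10) summed to 4880 to 4920 CPM in dKO and 8670 to 8800 CPM in WT, and neural progenitor markers (8 of 10) to 7610 to 7950 and 5270 to 5310 CPM. The other lists summed in dKO and in WT to 2550 to 2680 and 4180 to 4200 CPM for neurons (5 of 10), to 1300 to 1580 and 540 to 546 CPM for mesenchyme (6 of 10), to 214 to 252 and 114 to 121 CPM for endothelium (4 of 10) and to 27.4 to 28.8 and 21.2 to 22.7 CPM for macrophages (2 of 10). Xist and Ddx3y had log2 fold changes of -2.42 ± 0.18 and -1.54 ± 0.21. The part of these markers in the values of the 8 genes was not tested.

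Tgfbr1 was at 470 and 515 CPM in dKO polysomal RNA and at 1190 and 1160 CPM in WT. The dKO level was 41.8% of the WT level, with a log2 fold change of -1.26 ± 0.06 (adjusted p = 8.60e-05, edgeR). Nras was at 653 and 809 CPM in dKO and at 1010 and 1020 CPM in WT (-0.47 ± 0.10, adjusted p = 0.00468, edgeR). The dKO replicates of Nras lay further apart than its replicates in either genotype of total RNA. Dusp9 had 16 and 34 counts in dKO and 292 and 276 in WT, that is 4.71 and 6.69 CPM against 18.6 and 16.9 CPM (-1.60 ± 0.27, adjusted p = 0.00184, edgeR).

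E2f5 was at 60.0 and 63.4 CPM in dKO polysomal RNA and at 146 and 148 CPM in WT, the tightest replicates of the transcription factor genes (-1.25 ± 0.10, adjusted p = 1.50e-04, edgeR). Plagl2 was at 240 and 223 CPM in dKO and at 385 and 375 CPM in WT (-0.72 ± 0.07, adjusted p = 2.86e-04, edgeR). Nr6a1 was at 28.5 and 13.8 CPM in dKO and at 52.5 and 56.0 CPM in WT (-1.40 ± 0.31, adjusted p = 0.00475, edgeR). The dKO replicates of Nr6a1 lay far apart, though both below WT. Without dKO polysomal replicate 2 its log2 fold change was -0.96, and without dKO polysomal replicate 1 it was -1.98.

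Hic2 was at 95.3 and 65.6 CPM in dKO polysomal RNA and at 123 and 120 CPM in WT (-0.61 ± 0.17, adjusted p = 0.0134, edgeR). Ccnj was at 220 and 185 CPM in dKO and at 292 and 289 CPM in WT (-0.52 ± 0.10, adjusted p = 0.00257, edgeR). For both genes dKO replicate 1 lay nearer to WT than replicate 2 did. With RLE scaling, which moves the median of all rows from -0.35 to -0.11, the calls of Hic2 (adjusted p = 0.112), Ccnj (0.052) and Nras (0.053) were lost, and with DESeq2 that of Hic2 (0.0936). Over all alternatives the adjusted p ran from 2.89e-17 to 0.112 for Hic2, from 2.21e-22 to 0.149 for Ccnj and from 2.05e-72 to 0.053 for Nras.

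The polysomal difference went with base composition, as a value across rows that share the same 4 libraries. Spearman's rho between log2 fold change and the GC content of the longest transcript was 0.764 over 5572 rows, against -0.0876 over 14039 genes in total RNA. The polysomal rows are the picked set without middle ratios, while the total RNA genes were not so picked. The rho values are thus not over like sets of genes. The 8 genes spanned this range, from Tgfbr1 (41.0% GC) and Nras (42.6%) through E2f5 (46.8%), Ccnj (47.6%), Nr6a1 (48.3%) and Plagl2 (49.5%) to Hic2 (54.4%) and Dusp9 (58.5%). Rows within 1 percentage point of the GC content of Tgfbr1 had a median log2 fold change of -1.01, against its own -1.26. Those near Nras had a median of -0.89, against its own -0.47. Those near Dusp9 and Hic2 had medians of 0.92 and 0.73, against -1.60 and -0.61 for these genes.

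An adjustment that removes the GC trend from each library, fitted here to the picked rows, left 6 of the 8 genes called lower. Over all 5777 rows it called 1263 lower and 1562 higher. Dusp9 was then at -2.56 ± 0.28 (adjusted p = 0.000877), Hic2 at -1.25 ± 0.15 (0.00137), Nr6a1 at -1.19 ± 0.31 (0.0207), E2f5 at -0.79 ± 0.09 (0.000984), Plagl2 at -0.71 ± 0.06 (0.000508) and Tgfbr1 at -0.14 ± 0.05 (0.048), all by edgeR. Ccnj, at -0.20 ± 0.10, was no longer called (adjusted p = 0.149, edgeR), and Nras turned to 0.50 ± 0.06, higher in dKO (adjusted p = 0.00138, edgeR). Over all alternatives the adjusted p ran from 3.79e-10 to 0.0332 for Dusp9, from 3.4e-25 to 0.0207 for Nr6a1, from 5.92e-35 to 0.000984 for E2f5, from 1.19e-34 to 0.00231 for Plagl2 and from 2.24e-254 to 0.0663 for Tgfbr1. In total RNA the same adjustment moved none of the 9 genes by more than 0.06.

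**Figure D4:**
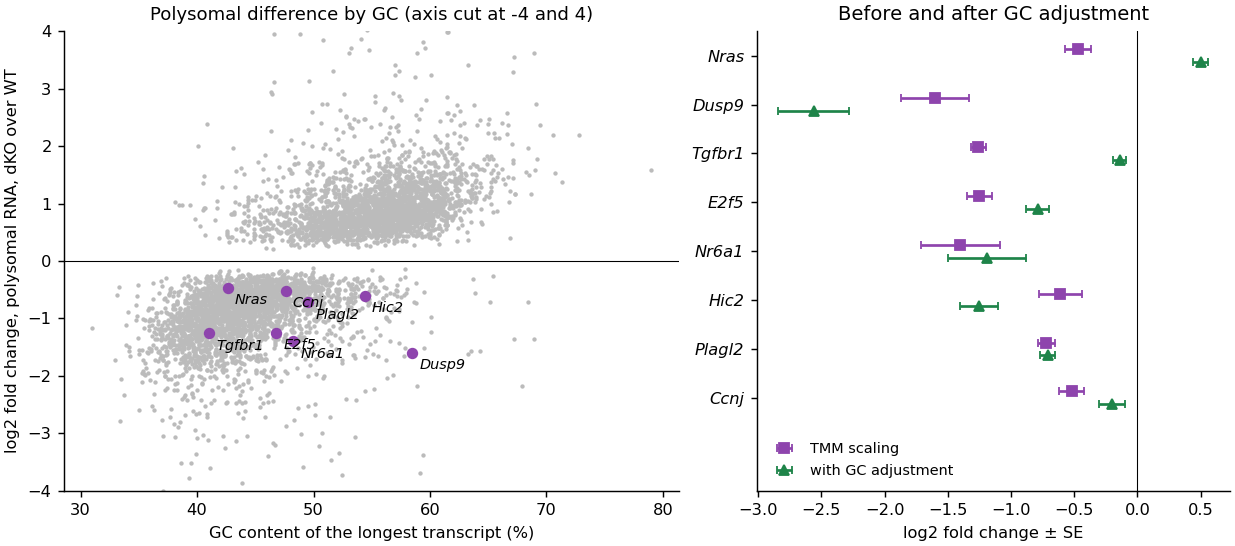
Left panel: log2 fold change of dKO over WT in polysomal RNA (vertical axis) against GC content of the longest transcript (percent), each grey point a gene and the 8 let-7 target genes in purple, with genes beyond -4 and 4 outside the axis. Right panel: the same 8 values with SE before (purple squares) and after (green triangles) the GC adjustment, with Dusp9 moving from -1.60 to -2.56 and Nras from -0.47 to 0.50.

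Relatives and pathway genes in polysomal RNA split both ways. Hras was at 215 and 153 CPM in dKO and at 67.5 and 67.0 CPM in WT, and its transcript holds 55.2% GC. Dusp7 (0.84 ± 0.13), Hic1 (1.78 ± 0.24), E2f4 (0.49 ± 0.10), Acvr1b (0.53 ± 0.08) and Ube2r2 (0.55 ± 0.06) were higher in dKO polysomal RNA on the log2 scale. Their transcripts held from 50.5% GC (Ube2r2) to 64.7% GC (Hic1). Plag1 (-1.24 ± 0.17), Plagl1 (-0.78 ± 0.09) and Ccnjl (-0.40 ± 0.09) were lower, with 42.1%, 46.4% and 53.3% GC. Of the 10 relatives tested, 6 were thus called higher and 4 lower, among 47.2% and 52.5% of all rows. The part of GC content in the values of the relatives was not tested.

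In dKO polysomal RNA 47.2% of all rows were called higher and 52.5% lower, with a median log2 fold change of -0.35. That fold change went with GC content (Spearman's rho 0.764), and the lists were not adjusted for it. By list, 15 of 24 Ras and ERK genes were called higher in dKO polysomal RNA and 9 lower, with a median log2 fold change of 0.59. The growth factor receptor gene Fgfr3 was at 1.10 ± 0.06. TGF-beta, activin and BMP genes gave 11 higher and 7 lower of 18 (median 0.53), with the type II receptor gene Bmpr2 at -1.25 ± 0.15. E2F and Rb family genes gave 3 higher and 5 lower of 9 (median -0.55), with E2f1 at 1.3 ± 0.11 and Rb1 at -1.07 ± 0.12. SCF genes gave 1 higher and 9 lower of 10 (median -0.64), and the other cyclins 2 higher and 12 lower of 14 (median -0.79), with Ccnb1 at -2.46 ± 0.17. Nuclear receptor genes gave 7 higher and 1 lower of 8 (median 1.13). The let-7 families gave 3 higher and 5 lower of 8 (median -1.06) and the further reported targets 3 higher and 6 lower of 9 (median -0.64).

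Whether the genotype difference itself differed between the RNA fractions was tested by the interaction over all 8 libraries and the genes in both tables. A negative value means that dKO was lower by more, relative to WT, in polysomal than in total RNA. The polysomal rows lack a middle range of dKO to WT ratios, and that ratio is part of the interaction. Its p-values are thus not those of genes taken without regard to the difference, and they are given as description. Of the 8 genes 4 were called lower, among 45.8% of 5780 genes so called, with 43.7% called higher and 89.5% either way. These were E2f5 (-0.82 ± 0.11, adjusted p = 5.96e-05), Tgfbr1 (-0.80 ± 0.07, adjusted p = 5.05e-06), Nras (-0.45 ± 0.11, adjusted p = 0.00311) and Plagl2 (-0.37 ± 0.08, adjusted p = 0.0015), by edgeR. The others were not called, namely Nr6a1 (-0.38 ± 0.32), Dusp9 (-0.09 ± 0.37), Ccnj (-0.02 ± 0.10) and Hic2 (0.20 ± 0.18). The median was -0.37 over the 8 genes and -0.13 over all.

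With the GC adjustment the interaction fit called 2541 of 5780 genes either way, against 5171 without it. Member counts of the fits are thus not on like backgrounds. With the adjustment 4 of the 8 were called lower, and only E2f5 (-0.44 ± 0.11, adjusted p = 0.00537) and Plagl2 (-0.41 ± 0.08, 0.0011) were among both sets, by edgeR. Dusp9 (-1.07 ± 0.37, adjusted p = 0.0362) and Hic2 (-0.46 ± 0.16, 0.0363) joined them. Nras (0.46 ± 0.06, adjusted p = 0.000161) and Tgfbr1 (0.28 ± 0.05, 0.00122) turned to higher. Over all alternatives the adjusted p ran from 3.17e-08 to 0.00931 for E2f5, from 1.05e-06 to 0.0259 for Plagl2, from 0.0362 to 0.969 for Dusp9 and from 0.000738 to 0.671 for Hic2, the last in both directions. Without dKO polysomal replicate 2, Hic2 was called higher (0.46 ± 0.13, adjusted p = 0.000738, edgeR), and without dKO polysomal replicate 1, Nr6a1 was called lower (-0.92 ± 0.23, adjusted p = 0.000408, edgeR; 0.000408 to 0.628 over all alternatives). For Nras it ran from 6.25e-18 to 0.0187 and for Tgfbr1 from 3.53e-22 to 0.0016, in both directions.

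**Figure D5:**
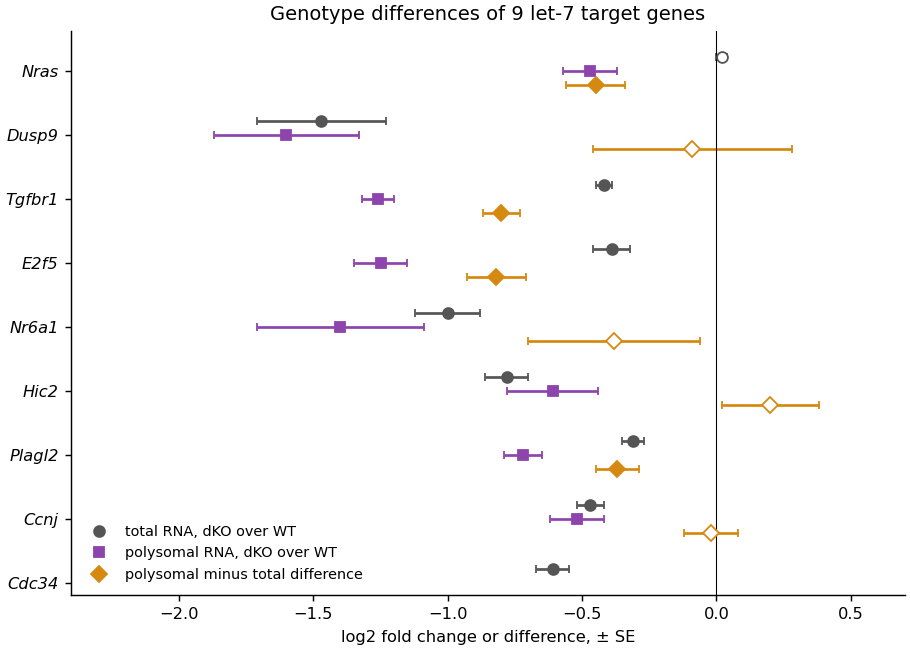
For each gene, the log2 fold change of dKO over WT with SE in total RNA (grey circles) and in polysomal RNA (purple squares), and the difference between them from the interaction (orange diamonds); open symbols did not pass an adjusted p of 0.05. E2f5 (-0.82), Tgfbr1 (-0.80), Nras (-0.45) and Plagl2 (-0.37) have filled diamonds left of zero, before any adjustment for GC content.

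The same fit gave the polysomal share relative to total RNA within each genotype, on the scale of the genes in both tables. It gives all groups a common spread per gene, although the dKO polysomal replicates stood further apart. Their chi-square per degree of freedom was 24.8, against 2.88 to 3.19 in the other groups. The SEs and p-values of a WT contrast thus also carry the spread of dKO libraries, and those of a dKO contrast that of WT libraries. In dKO, polysomal RNA was lower than total RNA for Nras (-0.72 ± 0.08), E2f5 (-0.72 ± 0.08), Tgfbr1 (-0.64 ± 0.05) and Plagl2 (-0.37 ± 0.06), 4 of 8 among 46.9% of all genes called lower and 43.1% called higher. With the GC adjustment E2f5 (-0.34) and Plagl2 (-0.42) stayed lower, while Nras (0.18) and Tgfbr1 (0.45) turned to higher. Nras was at 664 and 831 CPM in dKO polysomal RNA on this scale and at 1250 and 1230 CPM in dKO total RNA. In WT, Nras alone was called lower (-0.27 ± 0.08, adjusted p = 0.0427, edgeR), among 8.51% of all genes called lower and 3.48% called higher. It was at 1010 CPM in both polysomal and at 1220 and 1230 CPM in the total RNA libraries. That call was lost without any one library other than those of dKO polysomal RNA (adjusted p from 0.111 to 0.252) and with upper-quartile scaling (0.0515). Over all alternatives it ran from 1.43e-13 to 0.252. For the other 7 the WT values lay between -0.15 for Ccnj and 0.33 for Dusp9. Tgfbr1 in WT (0.16 ± 0.05, adjusted p = 0.0557, edgeR) was called higher in 8 of 17 alternatives, with adjusted p from 6.73e-07 to 0.371 over all of them. Ccnj was called lower in 2, those without either dKO polysomal library (0.00308 to 0.588 over all).

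Genes with profiles most like each of the 8 over all 8 libraries were found by the distance between gene-centred log2 CPM values, among 5604 others with a mean of at least 5 CPM. E2f5 and Tgfbr1 were near each other, at 0.12, Tgfbr1 second nearest to E2f5 and E2f5 nearest to Tgfbr1. These profiles hold no GC adjustment, with which the polysomal log2 fold changes were -0.79 for E2f5 and -0.14 for Tgfbr1. The RNA-binding protein gene Serbp1 was nearest to E2f5 (0.11). Ewsr1 (0.13) and Sephs1 (0.14) were nearest to Nras, Naa35 and the beta-catenin gene Ctnnb1 (0.16 each) to Plagl2, and Gpd2 (0.14) and Wdr76 (0.20) to Ccnj. Pigm (0.16) came second for Tgfbr1. Dusp9 lay farther from any gene, with Arid3b at 0.50 and the globin gene Hbb-bh1 at 0.66, as did Nr6a1, with Hapln1 at 0.43 and Mt1 at 0.51. Pbx2 (0.25) and Cenpl (0.30) were nearest to Hic2. For Cdc34, over the 4 total RNA libraries only, Sf3a2 and Smarca5-ps were at 0.03 among 11534 others.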

How the data were processed

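For each RNA fraction the authors deposited a table of raw read counts (whole numbers, 1 row per gene symbol, 1 column per library). The submitters' processing notes name FastQC, TopHat, HTSeq and 3 labels for builds, mm9, mm10 and GRCm38, with neither versions nor roles. Trizol extraction and a strand-specific library kit are stated per the labels' protocols. The annotation, the strand setting, how reads with several matches were treated and how polysomal rows were picked were not stated in any source at hand. Depth is given with the results.

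Counts were tested with edgeR 4.0.16 (TMM, filterByExpr, quasi-likelihood F test) in R 4.3.3. Each genotype comparison was fitted within its own fraction over all its genes. The interaction and the contrasts between fractions were fitted over all 8 libraries and the genes in both tables (5802 before filtering). In that fit all groups share a common spread per gene. Benjamini-Hochberg adjustment ran over all genes tested, with a threshold of 0.05. Standard errors are the absolute log2 fold change over the square root of F. The scripts were tested on simulated data. GENCODE M21 gave lengths, GC content and 3′ UTRs by symbol, with GC content for 96.5% of polysomal and 96.2% of total RNA genes tested.

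Alternatives were scaling by RLE or by upper quartile, limma-voom (limma 3.58.1), DESeq2 1.42.0, no filter, a CPM filter (mean of 5 or more), replicate number as block, and a GC adjustment with and without that block. The adjustment was an offset per library, a loess (span 0.5) of its difference to mean WT of the same fraction. Further alternatives centred the empty interval of polysomal ratios on 0, fitted all 8 libraries together or left out each library in turn. Where this left 1 library in a group, that library is assumed to vary like the others. The members, the lists and the tests were chosen with earlier results of these data known. Named are the 9 genes, both Lin28 genes, Xist and Ddx3y, the relatives, up to 6 of the largest called changes of each list and the 2 nearest profiles of each gene. Some genes counted in the lists are not reported here by name.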

Additional observations from a re-analysis of the deposited data

Results flagged for a closer look

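For 4 of the 8 genes with polysomal rows, the genotype difference in polysomal RNA was not the same as in total RNA by the interaction test (edgeR, all 8 libraries). The difference was -0.82 for E2f5, -0.80 for Tgfbr1, -0.45 for Nras and -0.37 for Plagl2 on the log2 scale. With the GC adjustment the values were -0.44 for E2f5, 0.28 for Tgfbr1, 0.46 for Nras and -0.41 for Plagl2, so the direction held for E2f5 and Plagl2 and turned for Tgfbr1 and Nras. The polysomal rows are a picked set in which 89.5% of the genes in both tables passed this test. They lack a middle range of the dKO to WT ratio that is part of the test, so these calls are description only.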

How the results depend on the processing

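The 8 falls in total RNA kept their direction and call under all alternatives run, except that Cdc34 could not be fitted over all 8 libraries, which left 7. Genes called in total RNA numbered 4485 of 14594 tested, but 2944 with DESeq2. The fit over all 8 libraries called 1286, but it tested only 5780 genes, those listed for both fractions, so its count is not over the same genes. Members called lower in polysomal RNA numbered 8, but 5 with RLE scaling and 5 with the replicate block and GC adjustment together. Polysomal genes called numbered 5760, but 2825 with the GC adjustment and 2929 with block and GC adjustment. For the interaction these were 5171, 2541 and 2447, and for polysomal against total RNA in dKO 5202, 3384 and 3296. In WT that comparison called 693 genes, 1177 with limma-voom and between 179 and 1998 with 1 library left out, with 1986 and 1998 without dKO polysomal replicates 1 and 2, 179 and 182 without those of WT polysomal RNA, 206 and 193 without those of WT total RNA, and 416 and 409 without those of dKO total RNA.

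Signs turned as follows, on the log2 scale. With the GC adjustment, alone or with the block, Nras was at -0.02 in total RNA and at 0.50 and 0.49 in polysomal RNA. In the interaction, Hic2 was at -0.46, Ccnj at 0.23, Nras at 0.46 and 0.45 and Tgfbr1 at 0.28. For polysomal against total RNA in dKO, Dusp9 was at -0.74, Hic2 at -0.56, Ccnj at 0.08, Nras at 0.18 and Tgfbr1 at 0.45. In the interaction, Dusp9 was at 0.03 with RLE scaling and 0.02 with DESeq2, and Ccnj at 0.10 and 0.11. In WT, Plagl2 was at 0.01 with RLE scaling, upper-quartile scaling and DESeq2. With 1 library left out, the interaction ran from -0.41 to 0.12 for Dusp9, -0.13 to 0.10 for Ccnj, -0.05 to 0.46 for Hic2 and -0.92 to 0.11 for Nr6a1. Polysomal against total RNA in dKO then ran from -0.15 to 0.36 for Hic2, -0.09 to 0.45 for Dusp9 and -0.88 to 0.14 for Nr6a1, and in WT from -0.03 to 0.02 for Plagl2 and -0.01 to 0.07 for Nr6a1.

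The replicate block alone changed no call of the 9 genes. The labels tie no numbers to shared embryos or litters, and correlations of same-numbered deviations were from -0.0414 to 0.0615. With 2 libraries per group these values show no pairing and cannot exclude one. The cause of each change was not tested. Dusp9 had only 16 and 34 counts in dKO polysomal RNA.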
